A study of Mus musculus with 12 samples.

Results

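Keratinocytes with and without the autophagy gene Atg7 were compared after exposure to paraquat. The comparison took the arrays titled as KO and wt mouse keratinocytes under paraquat, 3 of each, which are 6 of the 12 arrays of the series. The other 6 arrays are the sham-treated cells of the same genotypes, and they serve to ask whether a genotype difference was also there without paraquat. They also enter the fit, and so the estimate of the spread behind every paraquat p-value. All cultures carried Atg7 f/f, that is, both copies of the gene flanked by recombination sites. The wt cells were K14::Cre - and kept the gene intact. The KO cells were K14::Cre +, so that the promoter of K14, a keratin of basal keratinocytes, drove the recombinase. Cells were grown in KGM-2 medium, and at about 50% confluence they received 20 µM paraquat or sham treatment, with RNA taken 48 h later. The labels describe biological triplicates without tying them to animals or litters, so p-values measure the spread between these samples only.

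Autophagy encloses cell contents in a double membrane and delivers them to lysosomes. ATG7 is the activating enzyme that both of its ubiquitin-like conjugation systems need, so cells without it form few or no normal autophagosomes. Paraquat is a herbicide that cycles with cell reductases and oxygen and so loads cells with superoxide. Keratinocytes of the outer epidermis end their life by cornification: they make filaggrin, loricrin, small proline-rich proteins and late cornified envelope proteins, cross-link them under the membrane, seal the outside with ceramides, and break down their own nucleus and organelles.

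Each array gave a signal for 41345 probe sets, of which 23521 carried a single gene symbol. The probe set with the highest mean stood for a gene, which left 22180 genes. Signals below are the deposited values on a linear scale, in the order replicate 1, 2 and 3. Differences are KO minus wt on the log2 scale with their standard error (SE), tested with limma's moderated test. A gene counted as changed where its p, adjusted by Benjamini-Hochberg over all 22180 genes, was under 0.05. The arrays had median signals between 42 and 45. Background was not measured separately, so a low signal is not proof that a gene was silent. Signals of different genes come from different probes and cannot be ranked against each other.

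Keratinocyte markers were high in all 6 paraquat arrays, with summed signals of 45627 to 46830 in wt and 46140 to 48860 in KO over 11 markers. None of the markers of keratinocytes, fibroblasts, melanocytes, leukocytes, endothelium or hair follicle and gland cells passed limma's test under paraquat. At an unadjusted p under 0.05 there were 0 of 11 keratinocyte markers. In the other lists there were 4 of 16, 2 of 12, 3 of 18, 2 of 12 and 3 of 20 in that order, beside 2448 of 22180 over all genes. The summed signal of 18 leukocyte and Langerhans cell markers was 2706 to 2880 in wt and 2313 to 2504 in KO. Most of it came from Cd68, a lysosomal protein that is not limited to leukocytes, with 1827, 1870 and 1778 in wt against 1342, 1482 and 1214 in KO. Ptprc, the pan-leukocyte CD45 gene, had signals between 15 and 21 in the 6 arrays. Hair follicle and gland markers summed to 2555 to 2580 in wt and 2142 to 2226 in KO, mostly through the transcription factor Sox9. The 12 endothelial markers summed to 723 to 799 in wt and 627 to 680 in KO, mostly through Kdr, with 295, 253 and 197 against 162, 147 and 137. Tek went the other way (0.46), and Pecam1, Cdh5 and Vwf had overlapping arrays. Sums over 16 fibroblast markers (884 to 978 against 922 to 938) and 12 melanocyte markers (1063 to 1151 against 1058 to 1104) overlapped between the genotypes. What part other cell types had in the differences below was not tested.

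Atg7 itself gave 442, 442 and 457 in the wt arrays under paraquat and 129, 148 and 96 in the KO arrays. The groups were far apart, and each array matched its genotype label. The difference was -1.87 (SE 0.13, adjusted p = 4.1e-05), a 3.65-fold lower signal in KO. Without paraquat it was -1.55, and the change in the difference did not pass the test (adjusted p = 0.467). Where the probe set lies relative to the deleted exons is not given in the sources used here, and the remaining KO signal does not measure protein.

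Under paraquat, 122 of 22180 genes (0.55%) differed between KO and wt. Of these 100 (0.451%) were lower and 22 (0.0992%) were higher in KO, so 82.0% of the calls were lower. Differences of at least 2-fold were found in 18 of the lower and 3 of the higher genes. At an unadjusted p under 0.05 there were 2448 of the 22180 genes. In all 122 the 3 KO arrays lay outside the range of the 3 wt arrays, an arrangement seen over all genes in 2011 lower (9.07%) and 1761 higher (7.94%). Counts of either kind in the gene lists below are to be read beside these shares, and a count near them is no sign of a change. The calls rest on few arrays. Their number was 30 without wt paraquat 1, 38 without wt paraquat 2, 53 without KO paraquat 2 and 35 without KO paraquat 3. With the 6 paraquat arrays fitted alone, 3 genes passed, all lower in KO: Lce1k (adjusted p = 0.0313), Lce3e (0.0407) and Psca (0.0407). KO paraquat 3 was the lowest KO array in 78 of the 100 lower genes, against 6 for KO paraquat 1 and 10 for KO paraquat 2.

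Of 39 gene lists, that of the late cornified envelope had the largest share of members lower in KO under paraquat. Of its 31 measured genes, 7 fell (22.6%, beside 0.451% of all genes) and none rose. All 31 had a lower mean in KO, with a median difference of -0.77 beside -0.0017 over all genes. In 27 of the 31 the KO arrays lay below the wt arrays, beside 9.07% of all genes. Averaged over the list, log2 signals were 9.37, 9.48 and 9.30 in wt and 8.78, 8.69 and 8.30 in KO, so that KO paraquat 3 stood lowest. The 7 calls were 3 without wt paraquat 1, without wt paraquat 2 or without KO paraquat 3, 4 without KO paraquat 2, and 1 in the fit of the 6 paraquat arrays alone. In sham-treated cells 6 of the 31 were lower in KO, beside 5.67% of all genes, and none higher, with a median of -0.31. The difference between treatments passed in 3 of the 31, all with KO minus wt lower under paraquat, beside 0.897% of all genes. The list means themselves were lower in sham, at 6.4, 6.7 and 6.4 in wt and 6.4, 6.0 and 6.0 in KO. Since the list was chosen with earlier results of these data known, its count describes the genes and is not independent evidence of a direction.

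**Figure D1:**
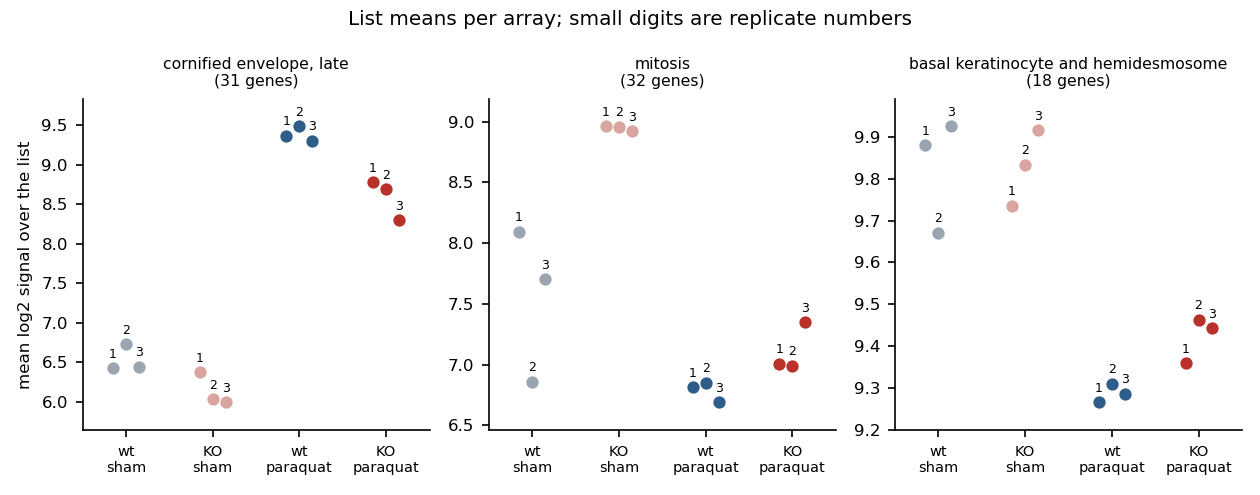
Mean log2 signal over the genes of 3 lists (vertical axis) in each of the 12 arrays, 1 point per array with its replicate number, by genotype and treatment. Late cornified envelope genes averaged 9.30 to 9.48 in the wt paraquat arrays and 8.30 to 8.78 in the KO paraquat arrays. In the mitosis list KO paraquat 3 was the highest paraquat array at 7.35.

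Late cornified envelope (Lce) genes lie in a row in the epidermal differentiation complex and encode small proteins that are cross-linked into the envelope late in cornification. Of 11 Lce1 genes, 5 fell (Lce1a1, Lce1a2, Lce1b, Lce1f and Lce1k), and all 11 had a lower mean in KO, with a median of -1.23. Close copies of this family can share probe signal, so the identity of single members is uncertain. The 5 calls were 3 without wt paraquat 1, wt paraquat 2, KO paraquat 2 or KO paraquat 3. For 10 of the 11 genes the promoter table gave a start site, all on chromosome 3, minus strand (RefSeq, assembly GRCm38.p6). The 120 bases before the start are shown for 4 of the genes that fell, since these members moved together. The windows of Lce1a1, Lce1b and Lce1a2 are alike over much of their length, and that of Lce1k less so. Capitals mark every match to CTGTCTCA and to ATAAAA, a form of the TATA box.

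Lce1a1, chr3:92648308-92648427: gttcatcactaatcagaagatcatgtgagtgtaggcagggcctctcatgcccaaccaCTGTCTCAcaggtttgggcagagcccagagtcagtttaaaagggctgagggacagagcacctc
Lce1b, chr3:92656927-92657046: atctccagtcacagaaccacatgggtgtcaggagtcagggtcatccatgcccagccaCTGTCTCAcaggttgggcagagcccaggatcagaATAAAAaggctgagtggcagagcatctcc
Lce1a2, chr3:92670316-92670435: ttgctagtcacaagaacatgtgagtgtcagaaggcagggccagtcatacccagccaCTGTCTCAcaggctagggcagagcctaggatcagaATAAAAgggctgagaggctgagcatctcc
Lce1k, chr3:92807892-92808011: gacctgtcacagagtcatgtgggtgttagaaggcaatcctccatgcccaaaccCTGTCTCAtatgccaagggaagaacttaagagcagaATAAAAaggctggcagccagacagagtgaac

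The letters CTGTCTCA stood in 8 of the 10 Lce1 windows, among them those of Lce1e, Lce1g, Lce1h and Lce1i, which did not pass the test. Over 32851 mouse promoter windows of the same length, 0.621% held them on either strand. ATAAAA stood in 9 of the 10 windows, beside 8.304% of all windows on either strand. The windows of Lce1l and Lce1m lacked the first motif. Both motifs were picked after these sequences had been read, and a match describes letters, not a binding site.

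Lce1k had the largest fall, from 54, 55 and 42 in wt to 14, 14 and 13 in KO under paraquat. The 3 KO arrays were nearly equal, and all lay below the wt arrays. The difference was -1.87 (SE 0.13, adjusted p = 3.25e-05), a 3.66-fold lower signal. These signals lay near or below the array medians of 42 to 45, and the size of the fall depended on the setting. Over the settings tried the difference ran from -2.00 to -1.16, beside -1.57 to -1.19 for Lce1f. The rank of Lce1k as the largest fall therefore holds for the main setting only. Lce1f gave 989, 932 and 788 in wt and 416, 371 and 247 in KO, a difference of -1.42 (SE 0.16, adjusted p = 0.00186). Lce1b gave 831, 848 and 695 against 415, 280 and 246 (-1.37, SE 0.22, adjusted p = 0.0150). In both genes the highest KO array stayed well under the lowest wt array.

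Lce1a1 gave 47, 68 and 62 in wt and 27, 24 and 22 in KO (-1.27, SE 0.15, adjusted p = 0.00215). Lce1a2 gave 119, 173 and 136 against 60, 72 and 56 (-1.18, SE 0.23, adjusted p = 0.0410). Neither pair of groups overlapped. In sham-treated cells Lce1k, Lce1a1 and Lce1i had signals of 4 to 9 in both genotypes, where rounding to whole numbers makes log2 values coarse. The genotype difference was larger under paraquat than in sham for Lce1k (adjusted p of the difference 8.48e-04), Lce1f (0.0236) and Lce1a1 (0.0204), but not past the threshold for Lce1b (0.254) or Lce1a2 (0.0654). Under the leaving out of each of the 12 arrays in turn, that test passed 12 times for Lce1k and 6 times each for Lce1f and Lce1a1.

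Among the Lce1 genes that did not pass, Lce1l came closest, with 155, 184 and 129 in wt and 90, 53 and 65 in KO (-1.19, adjusted p = 0.0537). Lce1e gave 1658, 1669 and 1506 against 839, 612 and 484 (-1.36, adjusted p = 0.0551), and Lce1i had a difference of -1.23 (adjusted p = 0.0600). Lce1g was the one member whose arrays overlapped, at 40, 70 and 33 in wt and 41, 52 and 22 in KO. None of the 6 Lce3 genes passed in the fit of 12 arrays, although in all 6 the KO arrays lay below the wt arrays, with differences between -1.23 and -0.65 and all 6 at an unadjusted p under 0.05 by limma. Lce3e gave 2581, 2679 and 2548 in wt and 1234, 1275 and 1055 in KO (-1.14, adjusted p = 0.0790). It was one of the 3 genes called from the 6 paraquat arrays alone, where the spread of the sham arrays did not enter.

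Lce6a, in the same row of genes, fell from 52, 55 and 41 to 26, 24 and 23 (-1.01, SE 0.10, adjusted p = 8.97e-04). In sham-treated cells it was higher in KO (0.40, adjusted p = 0.0263), and the difference between the treatments passed (-1.41, adjusted p = 3.44e-04). Lce6a, like the Lce genes named above beyond Lce1k, Lce1f, Lce1b, Lce1a1 and Lce1a2, was chosen for mention after its values were seen.

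**Figure D2:**
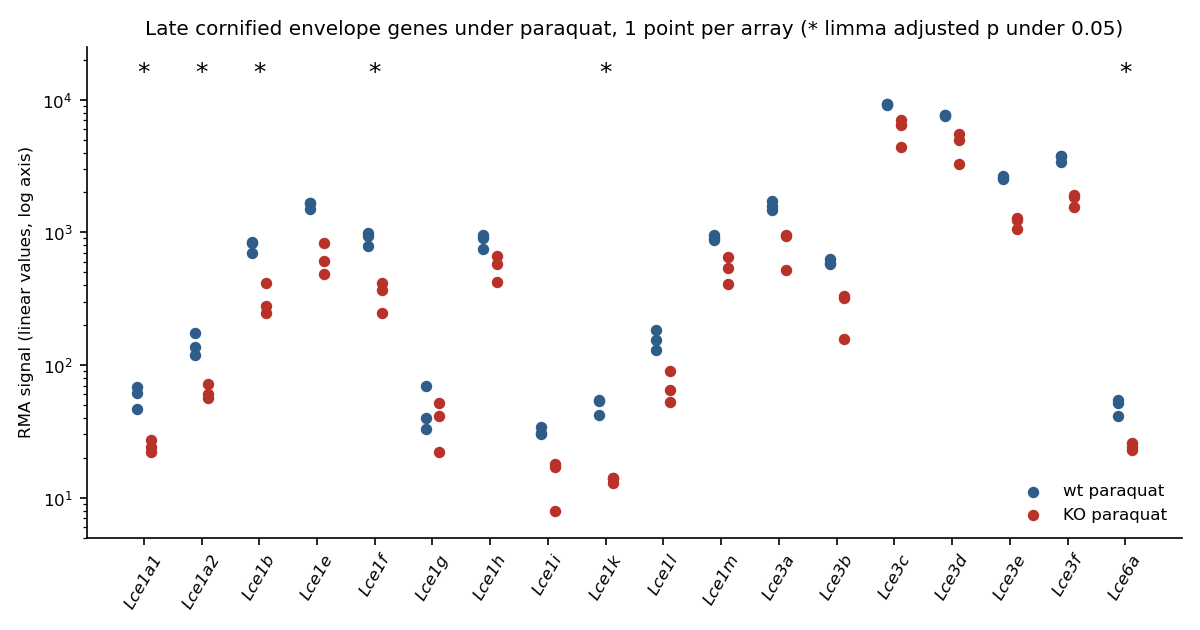
Signal of 18 late cornified envelope genes in the 6 paraquat arrays (vertical axis, RMA signal on a log axis), with wt in blue and KO in red and 1 point per array. Asterisks mark the 6 genes past the threshold. Only Lce1g has overlapping groups.

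Some genes of the long S100-fused proteins of the granular layer fell and others did not pass. Flg, which encodes filaggrin, the protein that bundles keratin filaments and then breaks down to natural moisturising factor, gave 509, 611 and 430 in wt and 277, 241 and 259 in KO. The groups were separate, and the difference was -0.98 (SE 0.14, adjusted p = 0.00672). Rptn (repetin) gave 1129, 1405 and 947 against 531, 713 and 615 (-0.90, adjusted p = 0.0236). Tchh (trichohyalin) gave 645, 706 and 501 against 369, 344 and 315 (-0.84, adjusted p = 0.00815). Hrnr (adjusted p = 0.0551) and Tchhl1 (0.0562) did not pass, with KO arrays below the wt arrays, and Flg2 (0.751) and Crnn (0.806) did not pass, with overlapping arrays.

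Lor, the gene of loricrin, the bulk protein of the envelope, gave 158, 180 and 141 in wt and 96, 84 and 75 in KO (-0.91, adjusted p = 0.0300). For Flg, Lor and Rptn the fall was about as large without paraquat (-0.90, -0.95 and -0.95), and the difference between treatments did not pass (adjusted p = 0.883, 0.963 and 0.937). For Tchh the sham difference was 0.31 and did not pass, while the difference between treatments did (-1.14, adjusted p = 0.00375).

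Prr9, a proline-rich gene of the same complex, gave 540, 585 and 431 in wt and 279, 247 and 163 in KO (-1.20, adjusted p = 0.0453). The 12 small proline-rich (Sprr) genes, whose products bridge other envelope proteins, did not pass in any case. All 12 had a lower mean in KO, with a median of -0.43, and 7 had an unadjusted p under 0.05. In 8 the KO arrays lay below the wt arrays, beside 9.07% of all genes. Sprr2f had the largest difference among them, with 227, 284 and 286 in wt and 205, 175 and 117 in KO (-0.71, adjusted p = 0.251).

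Over the whole complex, from S100a10 to S100a1, 64 genes were measured and 11 of them fell (17.2%), with none higher and a median of -0.45. Of the 22116 genes elsewhere, 89 (0.402%) fell. The interval was chosen after the values were seen, so these counts are a description. The 11 became 5 without wt paraquat 1 or without KO paraquat 3, 6 without wt paraquat 2, 7 without KO paraquat 2, and 2 with the 6 paraquat arrays alone.

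Of 37 measured genes of the suprabasal layers, which precede the envelope, 6 fell (16.2%) and none rose, with a median of -0.35, and 29 had a lower mean in KO. In 2 of the others, Krt77 (0.12) and Klk14 (0.23), all KO arrays lay above the wt arrays, and neither passed. The members that fell serve cell contacts, peptidases and transcription. The 6 became 0 without wt paraquat 1, wt paraquat 2 or KO paraquat 3, 1 without KO paraquat 1 and 2 without KO paraquat 2. In sham-treated cells 9 of the 37 were lower and 2 higher in KO, beside 5.67% and 4.58% of all genes, with a median of -0.19. The difference between treatments passed in 4 of the 37, all with KO minus wt lower under paraquat, beside 0.897% of all genes.

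Dsc1, a desmosomal cadherin of the upper layers, gave 1099, 1167 and 1041 in wt and 595, 630 and 514 in KO (-0.93, SE 0.17, adjusted p = 0.0269). Cdsn, corneodesmosin, which holds cornified cells together, gave 5310, 5565 and 4591 against 3175, 2987 and 2306 (-0.88, adjusted p = 0.0322). In sham the differences were -1.59 and -1.61, both past the threshold, and the difference between treatments did not pass (adjusted p = 0.182 and 0.124). Ppl, the gene of periplakin, a plakin that starts envelope assembly, gave 1984, 1973 and 1756 against 1340, 1465 and 1214 (-0.51, adjusted p = 0.0309), with 0.05 in sham and a difference between treatments that passed (adjusted p = 0.0453).

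Among 13 kallikrein-related peptidases, which cleave the contacts of cornified cells, 2 fell. Klk6 gave 806, 778 and 637 in wt and 384, 371 and 434 in KO (-0.90, SE 0.15, adjusted p = 0.0236). Klk8 gave 1821, 1749 and 1618 against 1107, 1140 and 1003 (-0.68, SE 0.12, adjusted p = 0.0299). Klk11 (-0.86) and Klk7 (-0.79) had differences of like size and did not pass.

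Elf3, an epithelial ETS transcription factor that acts on differentiation genes, gave 247, 224 and 215 in wt and 129, 163 and 123 in KO (-0.73, SE 0.12, adjusted p = 0.0150). In sham it was equal in the genotypes (-0.01), and the difference between treatments passed (adjusted p = 0.0417), though only 1 time when each of the 12 arrays was left out in turn. Other suprabasal genes did not pass, among them the early keratins Krt1 (-0.58) and Krt10 (-0.35), involucrin (Ivl, -0.47), and the transglutaminases Tgm1 (-0.21) and Tgm3 (-0.65).

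Of 53 keratins, 3 fell. Krt78, a keratin of stratified epithelia, gave 484, 495 and 364 in wt and 242, 215 and 177 in KO (-1.08, SE 0.20, adjusted p = 0.0355). Krt80 gave 3304, 3214 and 2709 against 2055, 2127 and 1641 (-0.67, SE 0.12, adjusted p = 0.0352). It was also lower in sham-treated KO cells (-0.47, adjusted p = 0.0305). Krt75 gave 279, 235 and 219 against 184, 177 and 162 (-0.48, SE 0.10, adjusted p = 0.0469). The last pair were the 2 of 14 listed wound and stress keratins that fell, and neither call stood when wt paraquat 1, wt paraquat 2 or any one KO paraquat array was left out.

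Of 21 genes of the barrier lipids, 1 fell, and 19 had a lower mean in KO, with a median of -0.27. It was Degs2, the enzyme that hydroxylates dihydroceramide to phytoceramide, at 341, 327 and 337 in wt and 176, 187 and 140 in KO (-1.01, SE 0.20, adjusted p = 0.0478). This call was lost on leaving out any one of the 6 paraquat arrays. Smpd3, a neutral sphingomyelinase that is not on the list, gave 483, 513 and 412 against 257, 261 and 202 (-0.97, SE 0.13, adjusted p = 0.00568). It was also lower in sham-treated KO cells (-0.46, adjusted p = 0.0374). Asprv1 (-0.84), the protease that matures profilaggrin, and the lipoxygenase gene Alox12b (-0.63) did not pass. In sham-treated cells 6 of the 21 listed genes were lower and 1 higher in KO, beside 5.67% and 4.58% of all genes, with a median of -0.39. The difference between treatments passed in 1 of the 21, with KO minus wt lower under paraquat, beside 0.897% of all genes.

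Further genes of the upper epidermis were named after their values were seen. Psca, a membrane-anchored antigen, gave 1973, 1886 and 1780 in wt and 1017, 1016 and 947 in KO (-0.92, SE 0.16, adjusted p = 0.0236). Its wt and KO arrays were each tight and far apart. In sham-treated cells Psca was higher in KO (0.86, adjusted p = 0.00404), so the sign of the genotype difference turned with paraquat, and the difference between treatments passed (-1.78, adjusted p = 0.00138).

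Lypd5, a Ly6-type surface protein, gave 2494, 2513 and 2262 against 1324, 1359 and 1033 (-0.98, adjusted p = 0.00924). Prss8, the channel-activating protease prostasin, gave 1767, 1909 and 1770 against 1164, 1155 and 888 (-0.77, adjusted p = 0.0114). Nccrp1 gave 1794, 1689 and 1591 against 1073, 1049 and 727 (-0.85, adjusted p = 0.0132). These 3 genes were also lower in sham-treated KO cells (-0.79, -0.44 and -0.57, all past the threshold). Cyp2b19, a cytochrome P450 of keratinocytes, gave 45, 37 and 39 against 25, 18 and 27 (-0.81, adjusted p = 0.0213).

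None of 18 basal and hemidesmosome genes passed, and their median was 0.16. In 9 of the 18 all KO arrays lay above all wt arrays, beside 7.94% of all genes. At an unadjusted p under 0.05 there were 4, all higher in KO. Itgb1, the main beta subunit of the matrix integrins, gave 1877, 1869 and 1947 in wt and 2241, 2540 and 2213 in KO (0.29, adjusted p = 0.210). Sox4 gave 320, 383 and 333 against 410, 387 and 456 (0.28, adjusted p = 0.281). The basal keratins Krt14 and Krt15 had differences of 0.08 and -0.13.

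**Figure D3:**
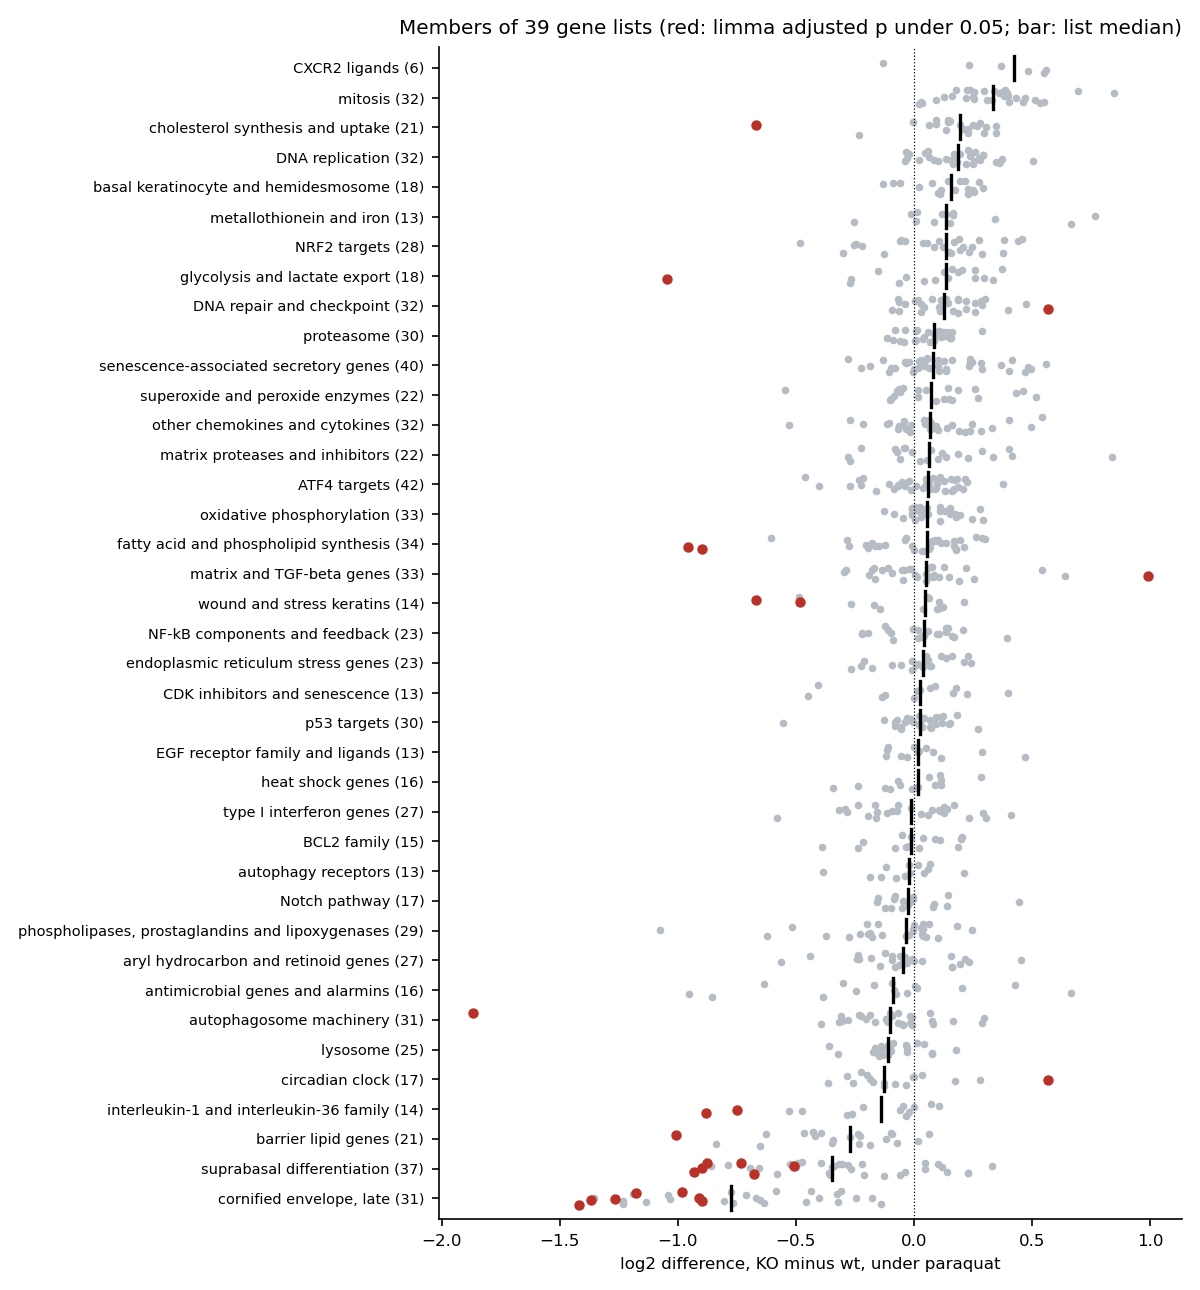
Genotype difference under paraquat (horizontal axis, log2 KO minus wt) for every measured member of 39 gene lists, with the number measured in brackets. Red points passed the test and black bars are list medians, from 0.43 for the CXCR2 ligands to -0.77 for the late cornified envelope.

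Of 14 genes of the interleukin-1 and interleukin-36 family, 2 fell, and both encode interleukin-36 cytokines, epithelial alarm signals. Il1f9 (interleukin-36 gamma) gave 1837, 1896 and 1727 in wt and 1180, 1209 and 890 in KO (-0.75, SE 0.14, adjusted p = 0.0394). Il1f8 (interleukin-36 beta) gave 525, 514 and 477 against 358, 292 and 198 (-0.88, SE 0.17, adjusted p = 0.0404). Il1f6 (interleukin-36 alpha) did not share the fall, with overlapping arrays of 350, 319 and 285 against 334, 365 and 244 (-0.03, adjusted p = 0.971). Il1f5 was lower without overlap and did not pass (-0.47, adjusted p = 0.232). In sham-treated cells the Il1f9 arrays held 183 to 212 in wt and 210 to 310 in KO, and the difference between treatments passed (-1.14, adjusted p = 0.0116). It passed whichever of the 12 arrays was left out. The fall itself was not called for Il1f9 or Il1f8 when wt paraquat 1, wt paraquat 2, KO paraquat 2 or KO paraquat 3 was left out.

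Signalling and transcription genes were among the lower calls. Map3k8, the kinase Tpl2 that feeds the ERK pathway, gave 784, 865 and 698 in wt and 513, 485 and 333 in KO (-0.84, adjusted p = 0.0269). Mapk13, the p38 delta kinase, gave 2352, 2381 and 2272 against 1497, 1594 and 1378 (-0.65, SE 0.09, adjusted p = 0.00672). Foxq1, a forkhead factor, gave 362, 391 and 307 against 196, 199 and 159 (-0.94, adjusted p = 0.00660), while a dimmer second probe set for it gave 0.03.

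The stress-inducible small Maf gene Maff (-0.57, adjusted p = 0.0331) and the growth arrest gene Gadd45b (-0.50, adjusted p = 0.0461) also fell. For Map3k8, Gadd45b and Foxq1 the difference between treatments passed (adjusted p = 0.0213, 0.0322 and 0.0211). For Maff and Mapk13 it did not (0.130 and 0.387), and Mapk13 was also lower in sham-treated KO cells (-0.40, adjusted p = 0.013). These 5 genes were named after their values were seen.

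Lnx1, a ubiquitin ligase whose target is the Notch regulator Numb, gave 334, 395 and 292 in wt and 159, 139 and 127 in KO. The groups were well apart, with a difference of -1.26 (SE 0.13, adjusted p = 8.97e-04). In sham its signals were 46 to 59 in all 6 arrays, with a difference of 0.02, and the difference between treatments passed (adjusted p = 0.00269). Pfkfb4, a bifunctional enzyme that sets the level of the main activator of glycolysis, gave 271, 340 and 284 against 158, 139 and 136 under paraquat (-1.04, SE 0.10, adjusted p = 8.97e-04) and 57 to 68 in all sham arrays. It was the 1 of 18 listed glycolysis genes that passed, and the list median was 0.14.

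Cpm, the membrane carboxypeptidase M, gave 352, 374 and 313 in wt and 188, 175 and 145 in KO (-1.04, SE 0.12, adjusted p = 0.00186). Rnf223, a ring finger gene, gave 1528, 1463 and 1364 against 789, 665 and 476 (-1.20, SE 0.19, adjusted p = 0.0150). Acp7, an acid phosphatase, gave 451, 464 and 421 against 217, 234 and 151 (-1.17, SE 0.17, adjusted p = 0.00967). In all 3 KO paraquat 3 was the lowest array.

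Sema6d, a transmembrane semaphorin, gave 81, 81 and 75 in wt and 49, 42 and 26 in KO (-1.07, adjusted p = 0.0236). Oser1, named for its response to oxidative stress, gave 1132, 1083 and 903 against 626, 532 and 389 (-1.03, adjusted p = 0.0394), while its dimmer second probe set gave -0.24. Gpnmb, a glycoprotein of lysosomes and melanosomes, gave 591, 453 and 606 against 265, 358 and 248 (-0.93, adjusted p = 0.0108) and was also lower in sham (-1.20).

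Lipid genes gave 3 more. Of 34 fatty acid and phospholipid genes, Lpin2 and Agpat4 fell. Lpin2, a phosphatidate phosphatase, gave 1125, 1049 and 873 in wt and 611, 568 and 406 in KO (-0.96, adjusted p = 0.0123), and its second probe set gave -1.09. Agpat4, an acyltransferase of phosphatidate synthesis, gave 188, 200 and 181 against 108, 91 and 107 (-0.90, adjusted p = 0.00186). It was also lower in sham-treated KO cells (-0.57, adjusted p = 0.00307). Of 21 genes of cholesterol synthesis and uptake, 1 fell, the sterol exporter Abcg1, with 560, 616 and 589 against 366, 438 and 316 (-0.67, adjusted p = 0.0236). The list median ran the other way at 0.20.

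**Figure D4:**
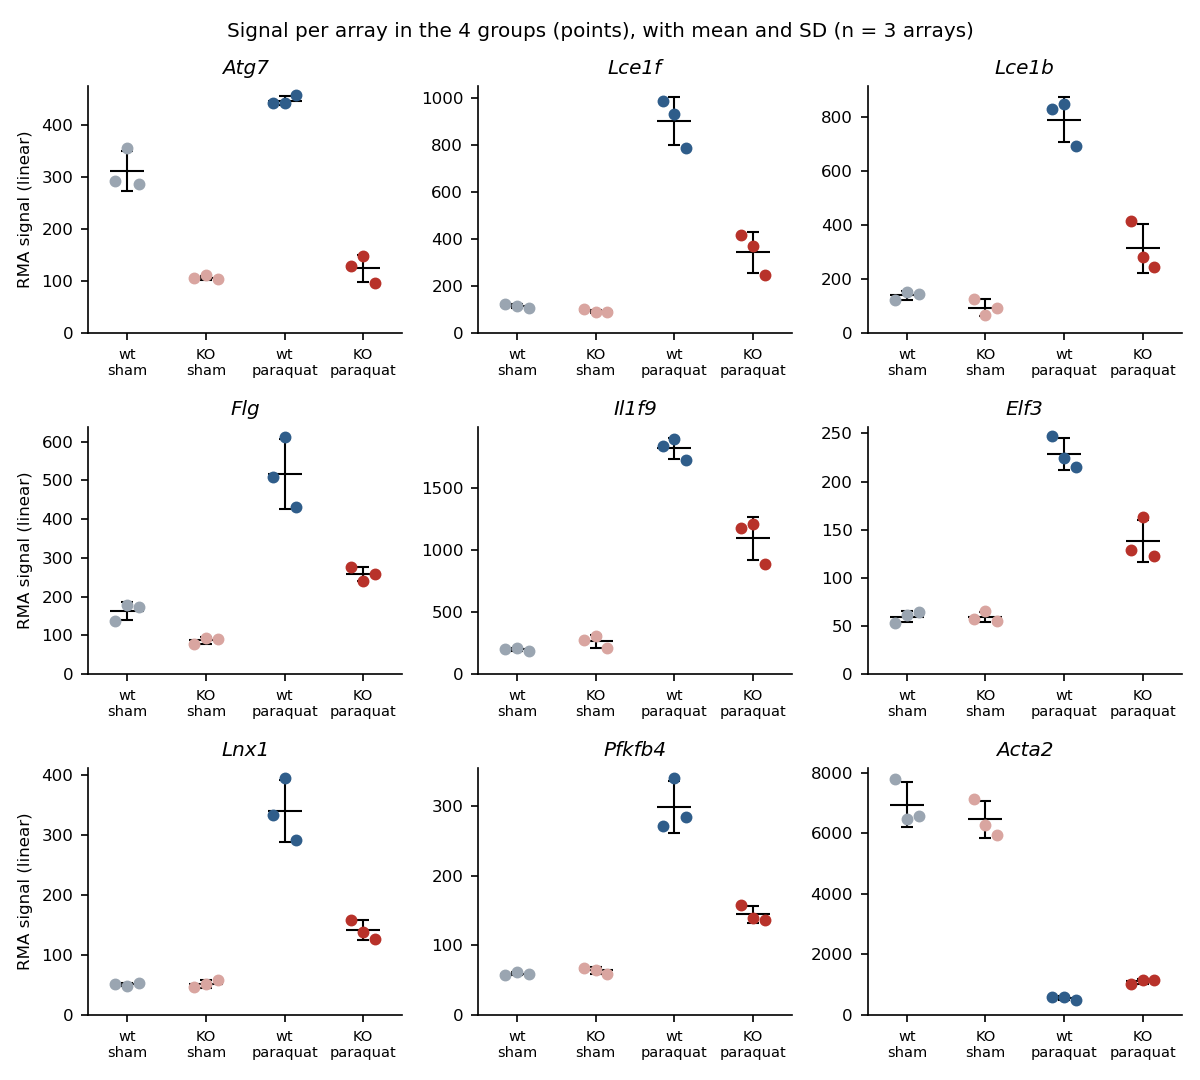
Signal of 9 genes in each of the 12 arrays (points; vertical axis, RMA signal on a linear scale), with the group mean and SD over 3 arrays. Elf3, Lnx1 and Pfkfb4 have near-equal sham groups and lower KO values under paraquat. Lce1f and Il1f9 are also lower in KO under paraquat, with sham differences of -0.31 and 0.39 that did not pass. Flg and Atg7 are lower in KO in both treatments, and Acta2 is higher in KO under paraquat and not in sham.

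Few genes were higher in KO. Acta2, smooth muscle alpha-actin, gave 579, 608 and 494 in wt and 1026, 1160 and 1151 in KO, with a wide gap between the groups. The difference was 0.99 (SE 0.11, adjusted p = 0.00171), a 1.99-fold higher signal. In sham-treated cells Acta2 held 5948 to 7792 in all 6 arrays with a difference of -0.10, so the paraquat arrays were far below the sham arrays in both genotypes, and less so in KO. The difference between treatments passed (1.10, adjusted p = 0.00286). Acta2 was the 1 of 33 matrix and TGF-beta genes that passed, and the list median was 0.05.

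Ccr3, the eotaxin receptor, had the largest rise, from 74, 42 and 77 in wt to 152, 181 and 173 in KO (1.44, SE 0.22, adjusted p = 0.0109). It was also higher in sham-treated KO cells (2.37, adjusted p = 3.6e-05). Prl2c5, a prolactin-family gene with near-identical copies that make its identity uncertain, gave 53, 39 and 46 against 84, 99 and 115 (1.11, adjusted p = 0.00672). Ulbp1, a ligand of the killer cell receptor NKG2D, gave 54, 33 and 35 against 76, 68 and 79 (0.90, adjusted p = 0.0290). Prl2c5 and Ulbp1 were also higher in sham-treated KO cells (0.66 and 0.78, adjusted p = 0.015 and 0.00797). Their differences between treatments did not pass (adjusted p = 0.356 and 0.860).

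Gjb2, a gap junction connexin, gave 697, 629 and 621 in wt and 905, 1123 and 1038 in KO (0.65, SE 0.13, adjusted p = 0.0410). Bhlhe40, a repressor in the circadian clock, gave 738, 620 and 644 against 845, 1071 and 1058 (0.57, SE 0.11, adjusted p = 0.0486). Wrn, the RecQ helicase mutated in Werner syndrome, gave 67, 71 and 71 against 94, 110 and 106 (0.57, SE 0.09, adjusted p = 0.0200). Wrn was the 1 of 32 DNA repair genes and Bhlhe40 the 1 of 17 clock genes that passed. The call of Wrn was lost in 5 of the 6 fits that left out a paraquat array, and so was that of Bhlhe40, the exception in both being KO paraquat 1.

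Smaller rises were found in several genes. Mfsd2a, a transporter of lysophospholipids, gave 83, 89 and 96 in wt and 119, 135 and 134 in KO (0.53, adjusted p = 0.0132). Its rise in sham was 1.26, and the difference between treatments passed (-0.72, adjusted p = 0.00691). Larp7, an RNA-binding protein, gave 215, 214 and 201 against 305, 296 and 314 (0.54, adjusted p = 0.00568). It was also higher in sham (0.38, adjusted p = 0.00459), and the difference between treatments did not pass (adjusted p = 0.492). Thap6 (0.53) and Prxl2c (0.43) were higher under paraquat and not in sham (-0.24 and -0.16), and their differences between treatments passed (adjusted p = 0.0129 and 0.0246). Zdhhc2, a palmitoyltransferase (0.67), Papss1, which makes the sulfate donor of the cell (0.57), the scaffold gene Grip1 (0.57), the potassium channel gene Kcnf1 (0.53) and Tes, a focal adhesion protein (0.45), were higher in both treatments. A dimmer second probe set of Tes gave 0.17. The other 6 of the 22 higher genes were the adaptor gene Fyb, the antisense transcript Dlx4os and 4 predicted genes.

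In the autophagosome machinery, 31 genes were measured and Atg7 was the only one called. Of the 31, 25 had a lower mean in KO, with a median of -0.10. In 11 the KO arrays lay below the wt arrays, beside 9.07% of all genes, and in 3 above, beside 7.94%. Map1lc3a (-0.32), Map1lc3b (0.30), Atg2a (-0.39), Ulk2 (0.29) and Atg5 (0.16) did not pass. None of 13 autophagy receptors passed, 3 at an unadjusted p under 0.05. The nearest was Retreg1, a receptor for the endoplasmic reticulum, with 675, 735 and 688 in wt and 567, 517 and 524 in KO (-0.38, adjusted p = 0.0807).

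None of 25 lysosome genes passed, although in 13 the KO arrays lay below the wt arrays, beside 9.07% of all genes. Of the 25, 3 had an unadjusted p under 0.05, beside 2448 of 22180 over all genes. Ctsa, a protective lysosomal carboxypeptidase, gave 812, 860 and 863 in wt and 634, 694 and 647 in KO (-0.36, adjusted p = 0.132). The cathepsin gene Ctsl gave 3943, 3937 and 3504 against 2869, 3135 and 3090 (-0.32, adjusted p = 0.316). None of 30 proteasome genes passed, with a median of 0.09 and 1 at an unadjusted p under 0.05.

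Oxidant defence genes gave no call. None of 28 NRF2 targets passed, with a median of 0.14. At an unadjusted p under 0.05 there were 10 of them, 6 higher and 4 lower. Gsr, glutathione reductase, gave 334, 278 and 311 in wt and 415, 372 and 467 in KO (0.44, adjusted p = 0.106). Slc7a11, the cystine importer, gave 339, 349 and 376 against 496, 435 and 451 (0.38, adjusted p = 0.169). Its arrays did not overlap in either treatment, and in sham it was lower in KO (-1.35), so the difference between treatments passed (1.73, adjusted p = 6.96e-05).

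None of 22 superoxide and peroxide enzymes passed, among them Sod1 with 357, 324 and 314 in wt and 399, 425 and 559 in KO (0.46, adjusted p = 0.200). None of 13 metallothionein and iron genes passed, with Mt1 at 0.34 and Lcn2 at 0.67 (adjusted p = 0.178 and 0.179). Unadjusted p-values under 0.05 were found in 7 and 3 of these. In the p53 list 0 of 30 passed, 2 at an unadjusted p under 0.05, and the median was 0.02. Its member with the smallest p, the kinase gene Plk3, gave 2211, 2265 and 2210 against 1611, 1644 and 1316 (-0.56, adjusted p = 0.159).

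Senescence-related lists gave no call. None of 40 genes of the senescence-associated secretory phenotype passed, with a median of 0.08 and 9 at an unadjusted p under 0.05, all higher. None of 13 CDK inhibitors and senescence genes passed, where 4 had an unadjusted p under 0.05 and Cdkn2c (-0.41) and Hmga2 (-0.45) the smallest. Neutrophil-attracting CXCR2 ligands had a median of 0.43 over 6 genes, with none called and 4 at an unadjusted p under 0.05. Cxcl5 gave 314, 336 and 349 in wt and 575, 433 and 475 in KO (0.56, adjusted p = 0.101). Cxcl2 gave 373, 332 and 376 against 511, 497 and 500 (0.48, adjusted p = 0.184). None of 16 antimicrobial genes passed, and 6 had an unadjusted p under 0.05. Defb4 (686, 781 and 668 against 325, 450 and 338; -0.95, adjusted p = 0.0551) and Defb14 (1143, 1146 and 1097 against 666, 641 and 568; -0.86, adjusted p = 0.0562) came close to the threshold.

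The genotype difference was set against that in sham-treated cells, where 2273 genes (10.2%) differed, 1016 higher (4.58%) and 1257 lower (5.67%). The contrasts share no array, only the estimate of the spread. Of the 22 genes higher under paraquat, 14 (63.6%) were also higher in sham, which is 1.38% of the sham calls. Of the 100 lower genes, 21 (21.0%) were also lower in sham, 1.67% of the sham calls, and 3 were higher there. The median difference of the 100 was -0.79 under paraquat and -0.15 in sham, where the first value follows from their choice. Across all genes the differences in paraquat and sham correlated at r = 0.245, over genes that are not independent replicates.

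The difference between treatments was tested for every gene and passed in 508 (2.29%), with KO minus wt higher under paraquat in 309 (1.39%) and lower in 199 (0.897%). Among the 100 genes lower in KO under paraquat it passed in 29, and among the 22 higher in 6. These genes were chosen by their difference under paraquat, which is part of the difference tested. Their counts therefore cannot be compared with the shares of all genes. For 50 of the 100 neither the sham difference nor the difference between treatments passed, so whether paraquat mattered for those is not settled by these arrays.

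**Figure D5:**
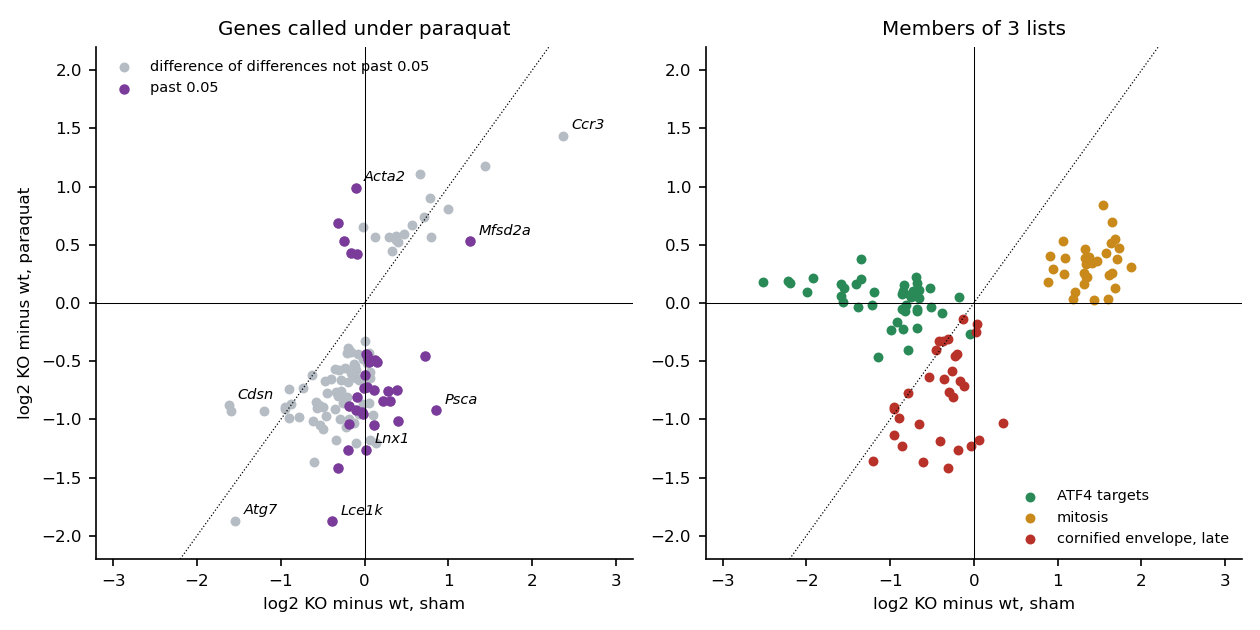
Genotype difference under paraquat (vertical axis) against sham (horizontal axis), both log2 KO minus wt, with a dotted line of equal differences. Left, the 122 genes called under paraquat, in purple where the difference between treatments passed. Right, members of 3 lists: ATF4 targets lie left of zero and near zero vertically (medians -0.85 in sham and 0.06 under paraquat), mitosis genes lie to the right (1.36 and 0.34), and cornified envelope genes lie low (-0.31 and -0.77).

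Some gene groups with many calls in sham had few or none under paraquat. Of 42 ATF4 targets, the amino acid response genes, 40 were lower in sham-treated KO cells, beside 5.67% of all genes, with a median of -0.85. Under paraquat none passed, with a median of 0.06 and 6 at an unadjusted p under 0.05, beside 2448 of 22180 over all genes. The difference between treatments passed in 32 of the 42, beside 1.39% of all genes, and in 27 to 36 when each array was left out in turn. Ppp1r15a, the phosphatase subunit that ends the stress response, gave 364, 584 and 474 in sham wt and 216, 204 and 212 in sham KO. Under paraquat it gave 443, 447 and 428 in wt and 339, 331 and 289 in KO. This member is not typical of the list, since its paraquat difference of -0.46 was the lowest of the 42.

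Cell division genes gave another such group. All 32 measured mitosis genes were higher in sham-treated KO cells, beside 4.58% of all genes, with a median of 1.36. Under paraquat none passed, although all 32 had a higher mean in KO, with a median of 0.34. In 15 the KO arrays lay above the wt arrays, beside 7.94% of all genes. Of the 32, 5 had an unadjusted p under 0.05, beside 2448 of 22180 over all genes. Ndc80, a kinetochore gene, gave 64, 69 and 78 in wt and 112, 124 and 144 in KO under paraquat (0.85, adjusted p = 0.101). Over the list, mean log2 signals were 6.81, 6.85 and 6.69 in wt and 7.01, 6.99 and 7.35 in KO, and KO paraquat 3, lowest for the cornified envelope, was highest here. Without KO paraquat 3 the median of the mitosis list was 0.19, and again none passed.

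The difference between treatments passed in 5 of the 32 mitosis genes, all with KO minus wt lower under paraquat, beside 0.897% of all genes. The count was 0 to 23 when each array was left out. It was 23 without wt sham 1, 7 without wt sham 2, 1 without KO sham 1 or KO paraquat 3, and 0 without any of the other 8 arrays. The list mean of wt sham 2 was 6.86, beside 8.09 in wt sham 1 and 7.70 in wt sham 3. Leaving it out, the sham count stayed at 32 of 32 with a median of 1.05.

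DNA replication genes were higher in sham KO cells in 29 of 32 cases, beside 4.58% of all genes, with a median of 0.85. Under paraquat none passed, with a median of 0.19 and 5 at an unadjusted p under 0.05, beside 2448 of 22180 over all genes. Pcna, the sliding clamp of replication, gave 767, 704 and 709 in wt and 921, 869 and 1040 in KO under paraquat (0.37, adjusted p = 0.0814). Among cholesterol genes 17 of 21 were higher in sham KO cells, beside the same 4.58%, with a median of 0.65, against 0 higher under paraquat. For these lists the difference between treatments passed in 6 of 32 and 4 of 21, beside 0.897% of all genes. In each of these KO minus wt was lower under paraquat. With each of the 12 arrays left out in turn the counts were 3 to 12 and 0 to 10. The highest values were without wt sham 1 in both lists. So for most of their members a change with treatment was not shown.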

How the data were processed

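Total RNA of 12 keratinocyte cultures was labelled and hybridised, 1 Affymetrix array per culture. Per the submitters' processing notes, the authors made the deposited intensity values by RMA, with version 1.3.1.187 of Affymetrix Expression Console. They were whole numbers from 3 to 17695, which were taken for rounded RMA signals that had been put back on a linear scale. The plan had assumed values on a log2 scale, so log2 of the deposited signals was taken with nothing added. The genome build behind the probe sets is not given in the sources used here.

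Of 41345 probe sets, 1814 carried several symbols and 16010 none, and these were not used. A mouse gene table (GRCm38.p6) held 23328 of the 23521 single-symbol probe sets and changed 0 symbols. For 1082 genes with several probe sets the one with the highest mean was taken. A model with 1 mean for each of the 4 groups was fitted to all 12 arrays with limma 3.58.1 in R 4.3.3 (lmFit and eBayes), 2-sided, with contrasts for KO against wt under paraquat, in sham, and their difference. The method was tested on simulated data. The number of arrays limits the precision.

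The 39 gene lists and 6 marker lists had 1116 entries, of which 1029 were measured, 9 of them under an older symbol. The measured entries were 901 different genes, and 39 of these belonged to several lists. Members, lists and rules were chosen with earlier results of these data known. Lists are described by counts and medians, with no set test. The genes named are Atg7 and, past the threshold, the 15 largest rises and 15 largest falls whose arrays do not overlap and whose higher group has a mean above the median of all probe sets, leaving out predicted and clone-named genes. Each list adds its 3 called members with the smallest p or, with no call, its 2 members with the smallest p as values. These are 93 genes, 42 of them called. A further 32 genes and the other list members given as examples were chosen after their values were seen. The 32 are Lce6a, Lce1e, Lce1g, Lce1h, Lce1i, Lce1l, Lce1m, Lce3a to Lce3f, Lor, Rptn, Tchh, Cdsn, Ppl, Klk8, Psca, Lypd5, Smpd3, Cyp2b19, Prss8, Foxq1, Nccrp1, Map3k8, Mapk13, Gpnmb, Gadd45b, Maff and Zdhhc2.

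Alternatives were quantile normalization repeated, each array centred on its median, 16 added before log2, a filter on dim genes, probe sets averaged per gene or each tested on its own, limma's variance trend or array weights, the replicate number as a block, a fit of the 6 paraquat arrays alone, and leaving out each array. For the paraquat counts, leaving out the sham arrays other than wt sham 2 was chosen after seeing the data. Promoter windows came from RefSeq (GRCm38.p6).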

Additional observations from a re-analysis of the deposited data

Results flagged for a closer look

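In 26 of the named genes (93 by the rule and 32 chosen after their values were seen) the difference between KO and wt under paraquat differed from that in sham. The test was limma's for the difference itself (adjusted p under 0.05), which passed in 2.29% of all genes. The named genes were chosen largely by their difference under paraquat, which is part of the difference tested. The 26 therefore cannot be compared with the share of all genes. Values are log2 KO minus wt under paraquat minus the same in sham.

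KO minus wt was lower under paraquat than in sham for the envelope genes Lce1k (-1.48), Lce6a (-1.41), Lce3a (-1.38) and Tchh (-1.14). It was also lower for the envelope genes Lce1f (-1.10), Lce1a1 (-1.07) and Ppl (-0.56). The same held for the surface antigen Psca (-1.78), the ubiquitin ligase Lnx1 (-1.28), the glycolysis regulator Pfkfb4 (-1.15), the cytokine Il1f9 (-1.14), the kinase Map3k8 (-1.05), the lipin Lpin2 (-0.94), the forkhead factor Foxq1 (-0.91), the carboxypeptidase Cpm (-0.85), the ETS factor Elf3 (-0.73) and the stress gene Gadd45b (-0.65). It also held for the retinol esterifying enzyme Lrat (-1.02), the chemokine Cxcl5 (-0.83), the CDK inhibitor Cdkn2c (-0.76) and the lipid transporter Mfsd2a (-0.72). Lrat, Cxcl5, Cdkn2c and Lce3a did not differ past the threshold under paraquat itself. By their group means, the envelope genes named here had higher signals under paraquat than in sham in both genotypes. Sham signals of Lce1k and Lce1a1 were 6 to 9, where rounding makes log2 values coarse.

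Higher relative to sham were the cystine importer Slc7a11 (1.73), the actin gene Acta2 (1.10), Thap6 (0.78), the EGF receptor ligand Epgn (0.74) and Prxl2c (0.59). Slc7a11 and Epgn did not pass under paraquat itself.

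With each of the 12 arrays left out in turn, the test passed all 12 times for Lce1k, Lce6a, Tchh, Psca, Lnx1, Pfkfb4, Il1f9, Mfsd2a, Slc7a11, Acta2 and Thap6. It passed 10 times for Cpm, 7 for Foxq1 and Map3k8, 6 for Lce1f and Lce1a1, 4 for Lpin2, Lrat, Cdkn2c and Gadd45b, 3 for Prxl2c, Epgn and Ppl, 2 for Cxcl5 and 1 for Elf3 and Lce3a.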

How the results depend on the processing

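Of the settings tried, none reversed the sign of a called gene named here, and the number of calls moved with most of them. In place of 122 changed, 22 higher and 100 lower under paraquat, the counts were 231, 46 and 185 with 16 added before log2, 228, 51 and 177 with a filter that kept genes brighter than the median probe set in 3 or more arrays, 223, 52 and 171 with a variance trend, and 249, 62 and 187 with array weights. They were 53 changed and 38 lower with every probe set tested, and 3, 0 and 3 with the 6 paraquat arrays alone. Leaving out each of the 12 arrays in turn gave 30 to 171 changed, 6 to 43 higher and 22 to 128 lower, the highest being without wt sham 2. The count in sham was 2273, with 976 in the fit of the 6 sham arrays alone and 1418 to 2363 with 1 array left out. The difference between treatments gave 508 genes, with 882, 894, 297 and 783 under 16 added, the filter, every probe set and the trend, and 250 to 700 with 1 array left out. Of the 42 called genes named by the rule, 1 passed with the 6 paraquat arrays alone, and 13 to 26 when a paraquat array was left out. Lce1k passed in all 16 settings in which it was tested, with differences from -2.00 to -1.16. Flg, Lce1f, Lnx1, Pfkfb4, Cpm, Agpat4 and Acta2 passed in 16 of 17, failing with the 6 paraquat arrays alone.

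The labels do not say whether replicate numbers pair the arrays. Deviations of same-numbered paraquat arrays correlated at 0.007 to 0.048, and those of different-numbered ones at -0.048 to 0.011. Over all groups the ranges were -0.073 to 0.09 and -0.126 to 0.145. With 3 arrays per group, correlations this small cannot decide whether the arrays were paired. With the replicate number as a block, 117 genes passed under paraquat, 97 of them among the 122, with 20 higher and 97 lower, 2014 in sham and 439 for the difference. Signals near 10 are coarse from rounding, which limits genes such as Lce1i.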

Other observations

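Several gene groups of the epidermis and of stress gave no call under paraquat and stand here as values. Among 29 phospholipases, prostaglandin and lipoxygenase genes, Pla2g4d, a cytosolic phospholipase of the upper epidermis, gave 560, 665 and 569 in wt and 370, 326 and 187 in KO (-1.08, adjusted p = 0.0600). Its neighbour in the family Pla2g4e gave 1186, 1135 and 1118 against 960, 842 and 511 (-0.62, adjusted p = 0.193). In both the KO arrays lay below the wt arrays, with KO paraquat 3 lowest, the list median was -0.03, and 7 of the 29 had an unadjusted p under 0.05. Among 27 aryl hydrocarbon and retinoid genes, Aldh1a3, which makes retinoic acid, had a difference of -0.44 and Lrat one of 0.45, the list median was -0.05, and 5 had an unadjusted p under 0.05. Among 22 matrix proteases and inhibitors, Mmp1b (0.84) and Plau (0.41) had the smallest p, with a list median of 0.07 and 5 at an unadjusted p under 0.05. Plau, the urokinase gene, gave 796, 714 and 706 in wt and 974, 964 and 992 in KO (adjusted p = 0.355).

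Stress and signalling lists had medians close to zero, with 0 calls each by limma and 1 to 8 members at an unadjusted p under 0.05. The 23 endoplasmic reticulum stress genes had a median of 0.04, with Pdia6 at 0.24 and Derl3 at -0.27. In 16 heat shock genes it was 0.02, with Cryab at -0.34 and Hsf2 at 0.28. The 23 NF-kB genes had a median of 0.04, with the ribonuclease gene Zc3h12a at 0.40 (adjusted p = 0.0805) and Tnip1 at -0.22, and 27 interferon genes one of -0.01, with Mx1 at -0.58 and Usp18 at -0.32. Among 32 other chemokines and cytokines the median was 0.07, with Lif at 0.33 and Il33 at -0.53. The 33 oxidative phosphorylation genes had a median of 0.06, with Sdha at 0.29 and Uqcrb at 0.28. For 13 genes of the EGF receptor family it was 0.02, with Ereg at 0.47 and Epgn at 0.29, for 17 Notch genes -0.03, with Jag1 at 0.44 and Heyl at 0.15, and for 15 BCL2 family genes -0.01, with Bcl2l1 at -0.39 and Bid at 0.20. Remaining pairs named by the rule were Bnip3 (0.21), Psma1 (0.29) and Psmd6 (0.16), Sesn3 (0.52), Ptp4a3 (0.18), Mad2l1 (0.40) and Pole2 (0.50). None of these passed.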
